A study of Homo sapiens with 6 samples.

Results

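Isolated shared regions are places in the genome that were open in every one of 6 T-ALL cell lines and had no other such place nearby. The authors' peak intervals on chromosomes 1 to 22 and X were merged wherever they overlapped, which gave 40110 regions. Of these, 9053 held a peak in every line and are called shared regions here. The members are the 351 shared regions with no other shared region whose midpoint lay within 500 kb of theirs, which is 3.88% of the shared regions (exact 95% interval 3.49% to 4.30%) and 0.875% of all merged regions. They were set against the 5293 shared regions that had 5 or more such neighbours, called dense here. The remaining 3409 shared regions had 1 to 4 neighbours. Members were chosen by the authors' peak calls and their positions, so their number and their spacing are descriptions and no test was made of them. Heights, widths and summits were not used to choose members, although each region had passed the authors' threshold in every line, whichever class it fell in.

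ATAC-seq uses the Tn5 transposase, which inserts sequencing adapters where DNA is accessible. A stack of inserted tags therefore marks open chromatin, and the position with the most tags is the summit of a peak. DNA that is open in every line of a lineage is known to include promoters of genes used by all cells and insulator sites bound by CTCF, a protein that holds chromatin loops. Both kinds also occur, more thinly spread, in gene-poor stretches of the genome. Which of these kinds the members belong to was not analysed here, since no genome or annotation of the files' build, hg19, was used; regions are given by position without genes or sequence.

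The series holds untreated cells of CCRF-CEM, KOPT-K1, DND-41, MOLT-4, HBP-ALL and TALL-1, all established lines of T-cell acute lymphoblastic leukaemia, a cancer of immature T cells. Per the labels they were grown in RPMI-1640 medium with serum and antibiotics. Each line was represented by 1 library and 1 peak list of 16507 to 22367 intervals, so no line has a replicate error, and a difference between lines cannot be told apart from one between preparations. The read totals are unknown. Height is given as the pileup, the whole number of tags at the strongest summit, recovered from the fold enrichment and −log10 p in the authors' lists. Over all shared regions its median was 31 tags in CCRF-CEM, 36 in KOPT-K1, 40 in DND-41, 36 in MOLT-4, 39 in HBP-ALL and 44 in TALL-1.

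Isolated regions lay a median of 0.737 Mb from the nearest shared region, with quartiles of 0.612 and 1.06 Mb, while the dense regions had a median of 0.0345 Mb. The most remote member was on chromosome 3 at 81810122 to 81811114, with its nearest shared neighbour 5.47 Mb away. Its pileup was 162 tags in CCRF-CEM, 51 in KOPT-K1, 122 in DND-41, 47 in MOLT-4, 51 in HBP-ALL and 68 in TALL-1. There CCRF-CEM and DND-41 stood well above the other lines there. Next came members on chromosome 2 at 80219985 to 80220846 (4.28 Mb), chromosome 4 at 190861481 to 190862493 (3.75 Mb), chromosome 8 at 114800583 to 114801215 (2.97 Mb) and chromosome X at 139014237 to 139015926 (2.88 Mb). The chromosome 2 member had 98 tags in CCRF-CEM and 30 to 46 in the other lines. The chromosome 4 member went the other way, with 31 tags in CCRF-CEM and 123 in KOPT-K1. On chromosome X the pileups ran from 31 tags in TALL-1 to 56 in CCRF-CEM, and the intervals there were wide, from 757 bp in MOLT-4 to 1540 bp in DND-41.

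At the edge of the rule, the closest members had a shared neighbour at 0.5001, 0.5002 and 0.5011 Mb. They were on chromosome 2 at 234762846 to 234763553, chromosome 11 at 106448063 to 106448768 and chromosome 1 at 210501892 to 210502893, with pileups of 21 to 65, 19 to 59 and 28 to 67 tags over the lines. Just on the other side, single neighbours at 0.49996, 0.4993 and 0.4991 Mb kept out regions on chromosome 7 at 35076634 to 35077871 (24 to 125 tags), chromosome 13 at 53725781 to 53726340 (15 to 32 tags) and chromosome 9 at 72374401 to 72375188 (34 to 55 tags). The values on the 2 sides of the limit overlapped.

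The members were not alone in the wider sense of the word. Within 500 kb they had a median of 10 other merged regions, which held peaks in 1 to 5 lines, against a median of 15 around dense regions. A single member, on chromosome X at 85302136 to 85302829, had no region of any line within that distance, and its nearest lay 655.9 kb away. Its pileups were modest, from 18 tags in HBP-ALL to 37 in DND-41. The nearest region of any kind lay a median of 28142 bp from isolated midpoints and 15681 bp from dense ones. Shared regions count here, and the rule keeps them more than 500 kb from members.

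How crowded the surroundings were depended on the line. CCRF-CEM had a mean of 5.03 further regions within 500 kb of an isolated midpoint and HBP-ALL 3.93, whereas DND-41 had 2.59, KOPT-K1 2.88, MOLT-4 2.75 and TALL-1 1.71. Around dense regions the corresponding means were 14.4 in CCRF-CEM, 16.8 in HBP-ALL, 14.5 in DND-41, 15.8 in MOLT-4, 14.5 in KOPT-K1 and 15.1 in TALL-1. These means count shared regions too. By the rule each dense region has at least 5 of them within 500 kb and a member has none, so the contrast between the classes is partly built in. In TALL-1 there was no further peak at all within 500 kb of 104 members (29.6%), and in CCRF-CEM none around 17 (4.84%). Of the regions with a peak in a single line that lay near members, counted once for each member, 42.3% were of CCRF-CEM, against 25.9% near dense regions. For TALL-1 the shares were 5.97% near members and 14% near dense regions. MOLT-4 showed the same order, with 8.68% near members and 14.2% near dense regions, and DND-41 differed little, at 8.26% and 7.48%.

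The members were spread unevenly over the chromosomes. Chromosome 5 held the most, 35 of its 456 shared regions, followed by chromosome 4 with 30 of 363 and chromosome 1 with 29 of 968. As a share of the chromosome's shared regions, chromosomes 13 (8.50%), 4 (8.26%), 18 (8.21%) and 5 (7.68%) stood at the top. These 4 chromosomes held 93 members, 26.5% of the members and 12.7% of the shared regions. Chromosomes 17, 14 and 19 stood at the bottom, with 0.496%, 0.612% and 0.875%, and they held 8 members among 1187 shared regions. Exact 95% intervals were wide where members were few: 4.17% to 14.2% on chromosome 18, and 0.0602% to 1.78% on chromosome 17.

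**Figure D1:**
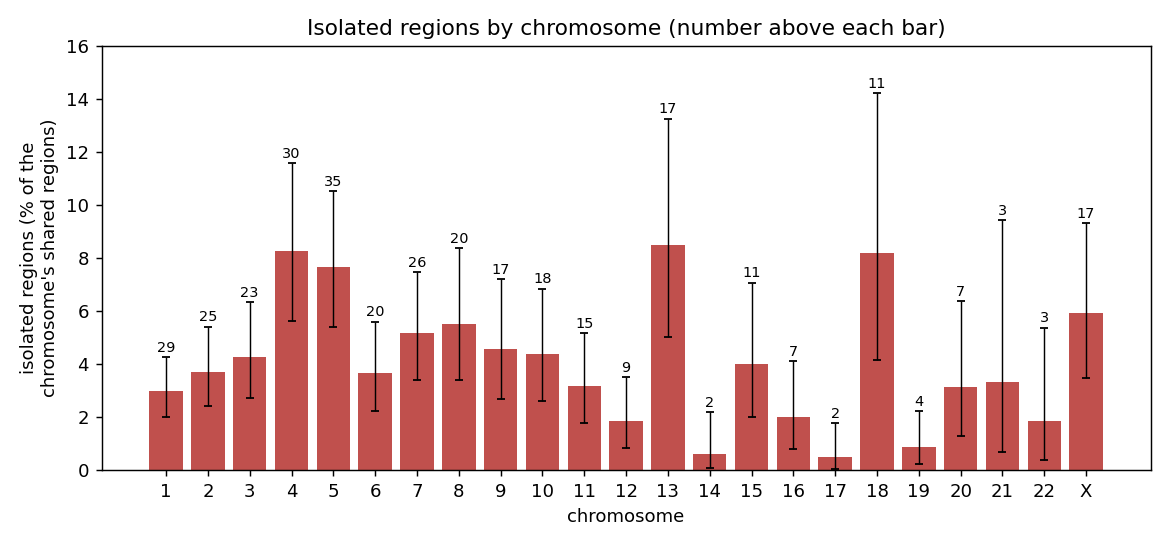
Isolated regions as a percentage of each chromosome's shared regions; bars start at 0, whiskers are exact binomial 95% intervals that cover counting error only, and the number of members stands above each bar. Chromosomes 4, 5, 13 and 18 lie between 7.68% and 8.50%, and chromosomes 14, 17 and 19 below 1%.

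This order followed the density of shared regions, which the rule builds in. Chromosome 18 had 1.72 shared regions per Mb between its first and last merged region and chromosome 4 had 1.90, against 7.78 on chromosome 19 and 4.99 on chromosome 17. Chromosome X was as sparse as chromosome 4, with 1.89 per Mb, and 5.92% of its shared regions were members. Per length the members were more even: a median of 1.16 per 10 Mb over the 23 chromosomes, from 0.227 on chromosome 14 to 1.94 on chromosome 5. Chromosome 12, with 9 members, had 0.675 per 10 Mb, about the level of chromosome 19 at 0.681.

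Members often followed each other. In 178 cases a member stood between shared regions of other classes or at a chromosome's end, but 173 members stood next to another member with no other shared region between, and 87 of them were in 25 runs of 3 or more. The run with the most members, named here after its values were seen, had 7 on chromosome 7 from 12297073 to 22123081, a stretch of 9.83 Mb. A run of 5 spanned 4.86 Mb on chromosome 4 from 19731532 to 24586612. Runs of 4 lay on chromosomes 1, 2, 4, 5, 7 and 13, of which that on chromosome 13, from 84710892 to 93459077, spanned 8.75 Mb. A stretch of 4.68 Mb without a shared region preceded it.

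The 7 neighbours on chromosome 7 differed widely in height. The first, at 12297073 to 12297844, had 13 tags in CCRF-CEM, 48 in KOPT-K1, 66 in DND-41, 7 in MOLT-4, 29 in HBP-ALL and 36 in TALL-1. The second, at 13889683 to 13890355, had 144 in CCRF-CEM, 36 in KOPT-K1, 57 in DND-41, 9 in MOLT-4, 33 in HBP-ALL and 26 in TALL-1. CCRF-CEM was thus near the bottom at one and far above all other lines at the next, while MOLT-4 was lowest at both. The sixth, at 21466587 to 21468134, was high everywhere, with 132 tags in CCRF-CEM, 150 in KOPT-K1, 175 in DND-41, 113 in MOLT-4, 127 in HBP-ALL and 161 in TALL-1. The last, at 22122404 to 22123081, was low in CCRF-CEM at 14 tags and highest in HBP-ALL at 58.

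The median peak at isolated regions was taller than at dense ones in each of the 6 libraries, by amounts that ranged from large to slight, and the adjusted test missed its threshold. In CCRF-CEM the median pileup was 58 tags at isolated regions (quartiles 32 and 90.0) and 27 at dense regions (18 and 42). DND-41 had medians of 56 and 36 tags in the same order, KOPT-K1 48 and 33, and HBP-ALL 44 and 37. In MOLT-4 the medians were 38 at isolated and 36 at dense regions, and in TALL-1 they were 46 and 44. The first of these lines thus had a ratio of 2.15, and the last a ratio of 1.05. Within every line the quartile ranges of the 2 classes overlapped.

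**Figure D2:**
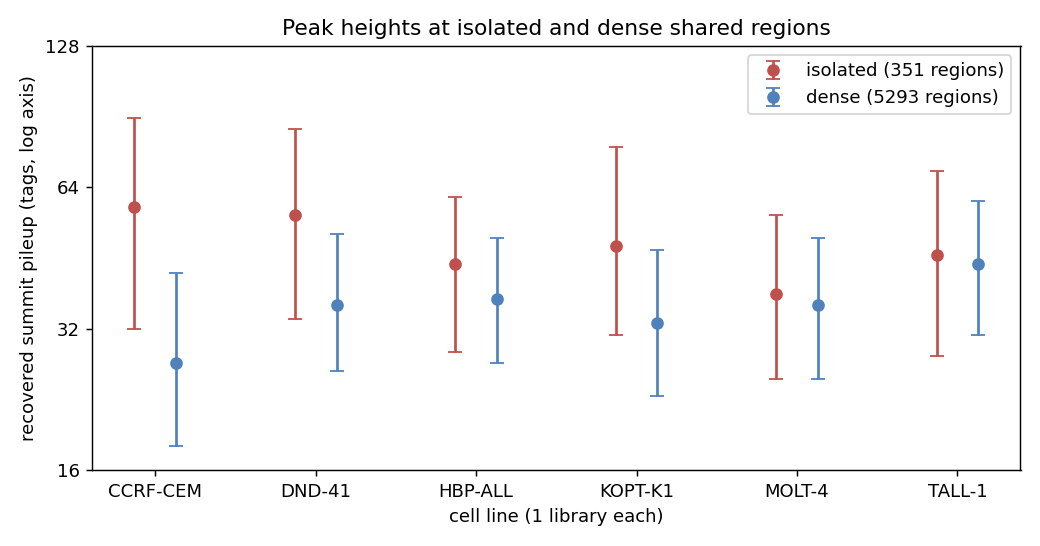
Recovered summit pileup in tags on a log axis for isolated and dense shared regions in each line; points are medians and bars run from the lower to the upper quartile over regions, not over replicates. The medians lie 58 against 27 in CCRF-CEM and almost level, 46 against 44, in TALL-1.

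The mean difference over the 6 libraries was 0.45 on the log2 scale (SD 0.40, isolated minus dense). An exact two-sided sign-flip permutation test over the 6 libraries gave p = 0.03125 for the pileup, the smallest value this design allows, with isolated regions higher in 6 of 6. After Benjamini-Hochberg adjustment over the 7 measures tested it was 0.0547, which misses 0.05 (exact permutation test). For a measure at the smallest p, the adjusted value depends on how many of the 7 measures reach that p. All 6 libraries read the same regions, so they are not independent samples of places in the genome. The count of 6 of 6 dropped to 4 of 6 with the neighbour distance at 250 kb, with peaks of −log10 p of at least 10 alone, and when every list was cut to its strongest peaks at 1 common number, and to 5 of 6 at 1 Mb. With HBP-ALL or KOPT-K1 left out, and the members found again from the remaining lines, isolated regions were higher in 3 of 5.

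The authors' own fold enrichment over the local background, from which the pileup was recovered together with the −log10 p, went the same way. Its median was 11.6 at isolated and 8.86 at dense regions in CCRF-CEM, 9.49 and 8.03 in DND-41, 9.39 and 7.93 in KOPT-K1, 8.78 and 7.92 in HBP-ALL, 8.59 and 8.0 in MOLT-4, and 8.62 and 8.01 in TALL-1. The mean log2 difference was 0.20 (SD 0.11), higher at isolated regions in 6 of 6 libraries, with an adjusted p of 0.0547 (exact sign-flip permutation test). At regions with 1 neighbour the median fold exceeded the isolated one in DND-41 (9.54), HBP-ALL (8.82), MOLT-4 (8.69) and TALL-1 (8.67). It was below the isolated one in CCRF-CEM (11.5) and KOPT-K1 (9.08). The recovered local background itself did not move one way. It was higher at isolated regions in CCRF-CEM, at 3.94 against 2.12 tags, and lower in TALL-1, at 4.06 against 4.53, and the difference had an adjusted p of 0.219 (exact permutation test, 4 of 6 higher). Ranked by the authors' −log10 p within its own list, the median isolated region stood at the 89.1th percentile of CCRF-CEM summits and the median dense one at the 64.3th. In TALL-1 these percentiles were 78.2 and 73.0. The mean difference was 12.9 percentile points, with 6 of 6 higher and an adjusted p of 0.0547 (exact permutation test). Pileup, fold and this rank are tied by calculation, so their like results are not separate support for each other.

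Many members were among the tallest shared regions. In CCRF-CEM 117 of 351 members (33.3%) reached the top decile of pileups, which, with ties, held 10.1% of all shared regions. DND-41 had 102 members there (29.1%, all shared regions 10.2%), KOPT-K1 92 (26.2%, all 10.1%) and HBP-ALL 67 (19.1%, all 10.5%). MOLT-4 had 59 (16.8%, all 10.6%) and TALL-1 52 (14.8%, all 10.0%). Of the dense regions, 4.23% in CCRF-CEM and 8.14% in TALL-1 were in the top decile. The isolated class also kept weak regions: its lower quartile was 28.0 tags in TALL-1, below the 31 of dense regions, although it was 28.5 in HBP-ALL, above the 27 there.

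The heights changed by degrees with the number of neighbours. To compare lines, log2 pileups were centred on each line's median over all shared regions. In CCRF-CEM the centred median was 0.90 with no neighbour, 0.65 with 1, 0.47 with 2, 0.26 with 3 or 4, −0.05 with 5 to 9 and −0.43 with 10 or more. DND-41 went the same way, at 0.49, 0.41, 0.23, 0.14, −0.07 and −0.23. KOPT-K1 stood at 0.42 with no neighbour and −0.26 with 10 or more, and HBP-ALL at 0.17 and −0.12. MOLT-4 and TALL-1 were nearly flat, with centred medians between 0 and 0.08 in MOLT-4 and between 0 and 0.06 in TALL-1. The classes are a description, because shared regions of 1 library are not replicates.

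**Figure D3:**
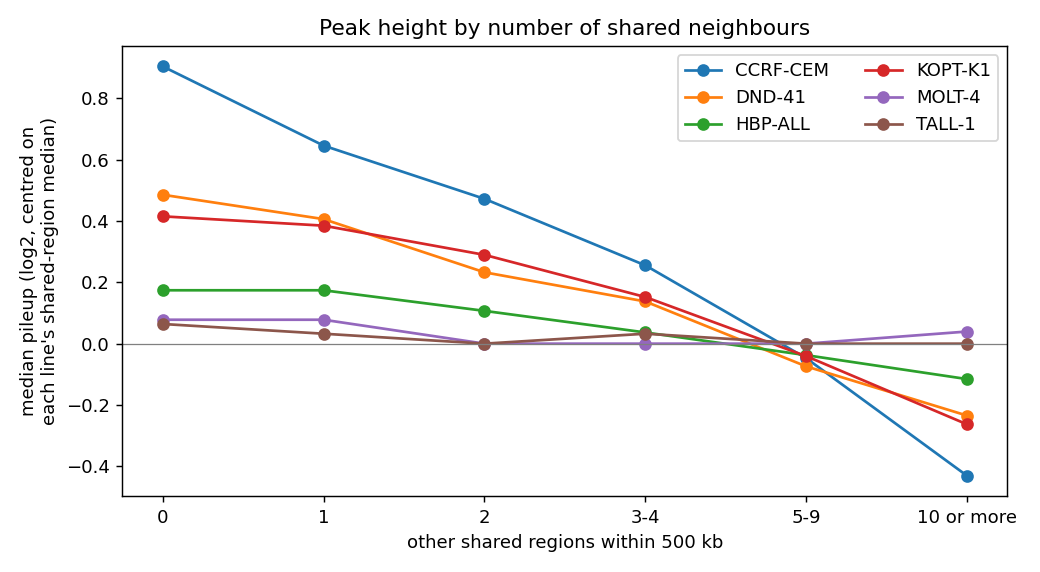
Median pileup of each line (log2, centred on the line's median over all shared regions) against the number of other shared regions within 500 kb, from 351 regions with none to 1929 with 10 or more. CCRF-CEM falls from 0.90 to −0.43 along the axis, and MOLT-4 and TALL-1 stay between 0 and 0.08.

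The differences were also present within chromosomes, as seen on the 18 chromosomes with at least 5 members and 5 dense regions (337 members). In CCRF-CEM the isolated median was the higher on 17 of these 18, in DND-41 and KOPT-K1 on 15 each, and in HBP-ALL on 13. MOLT-4 had 11 of 18 and TALL-1 9 of 18. Weighted by the number of members, the within-chromosome log2 difference was 0.86 in CCRF-CEM, 0.49 in DND-41, 0.42 in KOPT-K1, 0.21 in HBP-ALL, 0.04 in TALL-1 and 0.03 in MOLT-4. Member heights themselves varied by chromosome. Averaged over the lines and centred, and among chromosomes with at least 5 members, their median was 0.86 on chromosome 8 and 0.63 on chromosome 4, and −0.58 on chromosome X and −0.51 on chromosome 9.

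The tallest member by far was on chromosome 7 at 61968698 to 61969770. It had 1293 tags in CCRF-CEM, 1423 in KOPT-K1, 2285 in DND-41, 1594 in MOLT-4, 2634 in HBP-ALL and 3291 in TALL-1, over local backgrounds of 96.5 to 234 tags. This member borders a stretch of 5.70 Mb without a region of any line, and stretches of 1 Mb or more are called bare here. The next 2 border bare stretches as well. On chromosome 10 at 42384956 to 42385687, beside 3.57 Mb without a region, there were 45 tags in CCRF-CEM and 227 to 431 in the other 5 lines. On chromosome 19 at 27731933 to 27732307, beside 3.46 Mb, the pileup was 75 tags in CCRF-CEM and 149 to 261 in the others. These 3 regions had summits within 38, 9 and 6 bp of each other over the lines, and CCRF-CEM had the fewest tags at each. With log2 pileups centred and set against the mean of the other 5 lines, KOPT-K1 was lowest at the chromosome 7 region. It stood at −0.49 there and CCRF-CEM at −0.40, while CCRF-CEM was still lowest at those on chromosomes 10 and 19. No list of artefact-prone regions was applied, and the part that repeated sequence may have in these stacks was not tested. Without the 21 members and 198 dense regions within 500 kb of a bare stretch or of a chromosome's first or last region, the mean log2 difference in pileup was 0.46, as large as with them. Medians move little when so few regions are left out, so this is no test of the part of repeated sequence.

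Further tall members did not border a bare stretch. No list of artefact-prone regions was applied to them either, and the part that repeated sequence may have in their heights was not tested. The region on chromosome 6 at 155634944 to 155636292 had 205 tags in CCRF-CEM, 131 in KOPT-K1, 192 in DND-41, 145 in MOLT-4, 130 in HBP-ALL and 145 in TALL-1. On chromosome 13 at 96328746 to 96329843 the pileups ran from 117 tags in MOLT-4 to 205 in TALL-1, with a single summit in every line. On chromosome 8 at 25315602 to 25316953 they ran from 107 tags in HBP-ALL and MOLT-4 to 179 in CCRF-CEM. The sixth member of the chromosome 7 run, described above, also belonged to the 8 tallest. So did a very narrow region on chromosome 8 at 70602307 to 70602523, whose intervals were 211 to 217 bp wide. It had 116 tags in DND-41 to 281 in MOLT-4 at fold enrichments of 21.1 to 26.4, and its summits lay within 7 bp.

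At the low end, 20 members (5.70%) had a centred mean height below −1, against 394 dense regions (7.44%). The lowest, on chromosome 9 at 9862083 to 9862681, was weak and nearly uniform, with 9 tags in CCRF-CEM, 12 in KOPT-K1, 11 in DND-41, 10 in MOLT-4, 11 in HBP-ALL and 11 in TALL-1. Its nearest shared neighbour lay 1.89 Mb away. The next lowest were on chromosome 1 at 144593622 to 144594603 (9 to 22 tags), chromosome X at 102023958 to 102024476 (8 to 18), chromosome 4 at 40910643 to 40911139 (10 to 18) and chromosome 9 at 90220041 to 90220856 (6 to 30). Each had a single summit in every line. At the opposite end, 70 members (19.9%) had a centred mean height above 1, against 224 dense regions (4.23%) and 410 with 1 to 4 neighbours (12.0%).

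For contrast, the 3 tallest dense regions lay on chromosome 1 at 156186237 to 156186639, chromosome 11 at 6255516 to 6256533 and chromosome 7 at 148725245 to 148726280. The first had 334 to 998 tags, and the other 2 had 97 to 212 and 107 to 167. The most crowded shared region, on chromosome 12 at 56582986 to 56584186, had 27 neighbours and pileups of 15 tags in CCRF-CEM to 43 in HBP-ALL.

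The unequal height differences of the lines given above can be restated region by region, as how the lines ranked against each other. Each line's centred log2 pileup was set against the mean of the other 5 lines at the same region. At isolated regions the median was 0.65 in CCRF-CEM, 0.15 in KOPT-K1 and 0.15 in DND-41, and it was −0.22 in HBP-ALL, −0.27 in MOLT-4 and −0.35 in TALL-1. At dense regions it was −0.10 in CCRF-CEM, −0.01 in KOPT-K1, −0.04 in DND-41, 0.00 in HBP-ALL, 0.09 in TALL-1 and 0.10 in MOLT-4. CCRF-CEM was above the other 5 at 287 of 351 members (81.8%), at 69.1% of regions with 1 to 4 neighbours and at 43.8% of dense regions. TALL-1 and MOLT-4 were each above the others at 83 members (23.6%), and at 57.6% and 58.9% of dense regions. With 1 to 4 neighbours these shares were 37.2% and 36.0%, so the tilt was not particular to members. These are descriptions, since a line with 1 library cannot be tested against another. Each line also belongs to the mean that the other lines are set against, so a high value of CCRF-CEM lowers theirs.

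**Figure D4:**
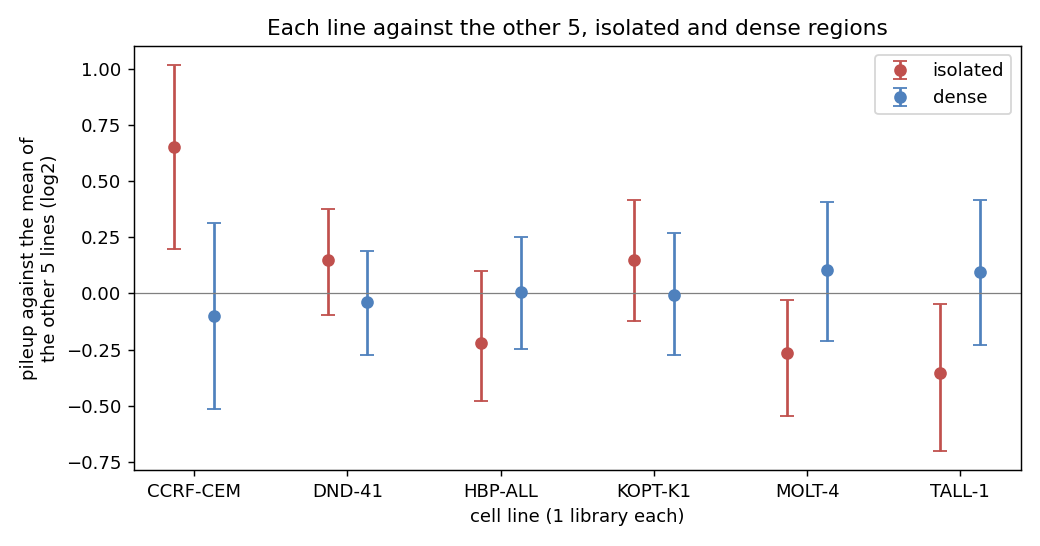
Pileup of each line against the mean of the other 5 lines (log2, centred) at isolated and dense regions; points are medians and bars run between the quartiles over regions. CCRF-CEM stands at 0.65 at isolated and −0.10 at dense regions, and TALL-1 at −0.35 and 0.09.

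At 91 members (25.9%, exact 95% interval 21.4% to 30.8%) CCRF-CEM was at least 2-fold above the mean of the other 5. Over all shared regions CCRF-CEM was so at 8.06%, and at regions with 1 to 4 neighbours at 13.5%. It was at least 2-fold below them at 11 members (3.13%, all shared regions 5.08%). TALL-1 was at least 2-fold below at 32 members (9.12%, exact interval 6.32% to 12.6%; all 4.24%) and above at 4 (1.14%, all 1.96%). KOPT-K1 was above at 14 members (3.99%, all 1.15%) and below at 6 (1.71%, all 1.68%). For MOLT-4 the counts were 5 above (1.42%, all 1.34%) and 18 below (5.13%, all 2.62%). HBP-ALL had 4 above (1.14%, all 1.02%) and 17 below (4.84%, all 2.66%), and DND-41 had 7 above (1.99%, all 0.663%) and 10 below (2.85%, all 1.06%). Several of these shares sit near that of all shared regions, among them those of HBP-ALL and MOLT-4 above. With the median of dense regions as the centre, CCRF-CEM was above at 119 members (33.9%, all shared regions 11.6%) and below at 5 (1.42%, all 3.14%), and TALL-1 was below at 49 (13.96%, all 6.03%). With the mean over all shared regions as the centre the counts moved the other way, to 72 above (20.5%, all 6.54%) and 13 below (3.70%, all 6.50%) in CCRF-CEM and 30 below in TALL-1 (8.55%, all 3.83%).

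CCRF-CEM was the highest line at 202 members (57.5%), against 21.2% of dense regions, and TALL-1 the lowest at 118 (33.6%), against 15.5%. MOLT-4 came next as the lowest line, at 85 members (24.2%, dense 12.9%). The reverse cases were few: CCRF-CEM was lowest at 24 members (6.84%), where at dense regions it was lowest at 30.3%, and MOLT-4 was highest at 10 (2.85%, dense 22%).

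Several members were far out in a single line. The CCRF-CEM excess was largest at the second member of the chromosome 7 run, with 144 tags and a log2 value of 2.71 against the other 5, and on chromosome 1 at 106372861 to 106373629. There CCRF-CEM had 79 tags, KOPT-K1 18, DND-41 9, MOLT-4 14, HBP-ALL 18 and TALL-1 20. CCRF-CEM was lowest against the others at the chromosome 10 member of 45 tags, at −2.46, and on chromosome 9 at 469779 to 470667, with 7 tags against 19 to 48.

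In TALL-1 the largest deficits, −2.45 and −2.40, were on chromosome 5 at 147161845 to 147162536, with 12 tags, and on chromosome 4 at 15003156 to 15005963. At the chromosome 4 region TALL-1 had 22 tags in an interval of 452 bp, and the other 5 lines had 84 to 114 tags in intervals of 967 to 2547 bp. The chromosome 5 region split the lines: KOPT-K1 had 106 tags, CCRF-CEM 90, HBP-ALL 82 and MOLT-4 39, while DND-41 had 15. It was thus the member with the lowest DND-41 value too (−1.90) and the one with the highest KOPT-K1 value (1.67). TALL-1 stood highest against the others on chromosome 21 at 42733641 to 42734609, with 76 tags against 11 to 33, and on chromosome 13 at 29232988 to 29233749, with 63 against 15 to 32.

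The remaining lines had far values at other members as well. DND-41 was highest against the others on chromosome 5 at 51452532 to 51453302, with 50 tags against 9 to 25, and at the first member of the chromosome 7 run. After the chromosome 5 region above, its next lowest value was on chromosome 5 at 58423006 to 58423881, with 16 tags against 40 to 76. HBP-ALL led at the last member of the chromosome 7 run and on chromosome 5 at 78907903 to 78908748, with 41 tags against 8 to 27. It was lowest on chromosome 12 at 129307884 to 129308989 (14 tags, 28 to 78 in the others) and chromosome 3 at 53915712 to 53916384 (14 tags, 19 to 53 in the others).

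KOPT-K1 was second farthest above the others on chromosome 5 at 157861808 to 157862849, with 85 tags against 11 to 51. It was lowest on chromosome 3 at 174158583 to 174159500, with 26 tags against 53 to 126, and on chromosome 22 at 32870447 to 32871438, with 9 against 13 to 39. MOLT-4 stood highest on chromosome 1 at 149223129 to 149224239, with 56 tags against 12 to 32, and on chromosome 19 at 29123214 to 29124780, with 31 against 10 to 23. Its lowest values, −2.35 and −2.20, were at the first 2 members of the chromosome 7 run.

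Heights varied more between lines at isolated regions than at dense ones, a description without a test. The unequal medians of the lines at isolated regions, from 0.90 in CCRF-CEM to 0.06 in TALL-1 once centred on all shared regions, enter this measure. The SD over the 6 lines of the centred log2 pileup had a median of 0.50 at isolated regions (quartiles 0.38 and 0.63) and 0.38 at dense regions (0.28 and 0.49). It exceeded 1 at 13 members (3.70%), at 39 regions with 1 to 4 neighbours (1.14%) and at 14 dense regions (0.265%). The largest SD, 1.5, belonged to the chromosome 5 region at 147161845, and the next were 1.40 and 1.18 at the chromosome 7 and chromosome 1 members where CCRF-CEM was far above. An SD of 1.13 was found on chromosome 1 at 164527845 to 164528541, with 84 tags in CCRF-CEM, 78 in KOPT-K1, 94 in DND-41, 42 in MOLT-4, 35 in HBP-ALL and 15 in TALL-1. The first member of the chromosome 7 run had the same SD. The steadiest member, on chromosome 18 at 45456632 to 45458170, had an SD of 0.07 with 63 tags in CCRF-CEM, 84 in KOPT-K1, 84 in DND-41, 76 in MOLT-4, 83 in HBP-ALL and 91 in TALL-1. A member on chromosome 19 at 28284138 to 28285364 came next, with an SD of 0.13 and 25 to 41 tags.

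The median interval at isolated regions was also the wider in each library, with a test that missed its threshold. Taking each line's own interval, which merging does not widen, the median width was 711 bp at isolated and 560 bp at dense regions in CCRF-CEM, 770 and 666 bp in DND-41, 771 and 685 bp in HBP-ALL, and 746 and 630 bp in KOPT-K1. MOLT-4 had 709 and 676 bp and TALL-1 711 and 653 bp. The mean difference was 91.3 bp (SD 42.1), with 6 of 6 libraries wider at isolated regions and an adjusted p of 0.0547 (exact sign-flip permutation test). Merged over the lines, isolated regions had a median width of 940 bp and dense ones 849 bp. By each line's own interval, regions with 1 to 4 neighbours lay between the 2 classes, often close to isolated ones. Their medians were 659 bp in CCRF-CEM, 708 in KOPT-K1, 752 in DND-41, 706 in MOLT-4, 746 in HBP-ALL and 708 in TALL-1. With exactly 1 neighbour the TALL-1 median was 725 bp, above that of isolated regions.

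Height and width moved together, so the widths were also compared within lower, middle and upper height classes of each line, cut at equal numbers of shared regions. In the upper class isolated intervals were wider in 6 of 6 lines, by 74.0 to 103 bp, for example 802.5 against 726 bp in CCRF-CEM. Isolated regions of that class were still taller, with a median of 83.5 against 59 tags there. In the lower class they were wider in 4 of 6 lines, with differences from −16.0 to 51.0 bp, and in the middle class in 4 of 6, from −24.5 to 75 bp.

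The widest member by its mean interval was on chromosome 11 at 58345119 to 58347420. Its intervals were 2097 bp in CCRF-CEM, 2040 in KOPT-K1, 2035 in DND-41, 1965 in MOLT-4, 2144 in HBP-ALL and 1741 in TALL-1, with 3 to 5 summits each, at heights of 51 to 82 tags. Wide members with 79 to 155 tags and 78 to 158 tags lay on chromosome 3 at 152878535 to 152880433 and chromosome 2 at 153573616 to 153575462. Another, on chromosome 13 at 98085143 to 98086687, had 93 tags in CCRF-CEM and 227 in TALL-1. After the chromosome 8 region of 211 to 217 bp, the narrowest by mean interval width were on chromosome X at 23118860 to 23119207, with 11 to 33 tags, and on chromosome 8 at 107738012 to 107738522, with 33 to 73 tags and summits within 12 bp.

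The number of summits differed little between the classes. Several summits were listed at 17.7% of isolated and 16.3% of dense regions in CCRF-CEM, 29.3% and 27.2% in DND-41, 36.8% and 34.0% in HBP-ALL, 24.8% and 23% in KOPT-K1, and 28.8% and 27.2% in TALL-1. MOLT-4 had 25.9% at isolated and 28.3% at dense regions. The mean difference of 1.2 percentage points had an adjusted p of 0.219 (exact sign-flip permutation test, 5 of 6 higher). A single summit in every line was found at 136 members (38.7%, exact interval 33.6% to 44.1%) and at 38.5% of dense regions. No member had more than 5 summits in a line.

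The strongest summits of the lines fell close together in a larger share of the isolated regions, but the distance test over libraries missed its threshold. In 66 members (18.8%, exact interval 14.9% to 23.3%) all of them lay within 50 bp, against 12.6% of dense regions (11.7% to 13.5%). Shared regions that were neither isolated nor dense stood between, at 15.0%. These intervals cover counting error over regions, which are not replicates. The share takes all lines together and has no value per library, so its difference between the classes is a description and was not tested. The median distance of a line's summit from the median summit of the other 5 was 24 bp at isolated and 33 bp at dense regions in CCRF-CEM, 25 and 31 bp in DND-41, 27 and 31 bp in KOPT-K1, and 28 and 33 bp in MOLT-4. It was equal in both classes in HBP-ALL (33 bp) and in TALL-1 (29 bp). The mean difference, −4.0 bp, had an adjusted p of 0.175 (exact sign-flip permutation test, 4 of 6 lower). Within the lower height class the distance was larger at isolated regions in 4 of 6 lines, with differences from −9 to 8.5 bp. In the middle class it was smaller in 5 of 6 lines, from −8.5 to 0 bp. The upper class had it smaller in 5 of 6, from −4 to 4 bp. At the other extreme, summits spread over more than 300 bp at 49 members (14%) and at 12.9% of dense regions.

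Members were also set in order of their distance from the nearest shared region. The 252 members at up to 1 Mb had a median of 53 tags in CCRF-CEM, the 80 at 1 to 2 Mb had 73, and the 19 beyond 2 Mb had 80. MOLT-4 had medians of 36, 40 and 44 tags in these classes and KOPT-K1 48, 48.5 and 51. In HBP-ALL the medians were 45.5, 43 and 41 tags, in DND-41 53.5, 60.5 and 56, and in TALL-1 46, 43 and 54. The median thus increased at each step in CCRF-CEM, MOLT-4 and KOPT-K1, and by the most in CCRF-CEM. The median SD over the lines was 0.49, 0.55 and 0.61 in these classes. The last class is small, and these are descriptions without a test.

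**Figure D5:**
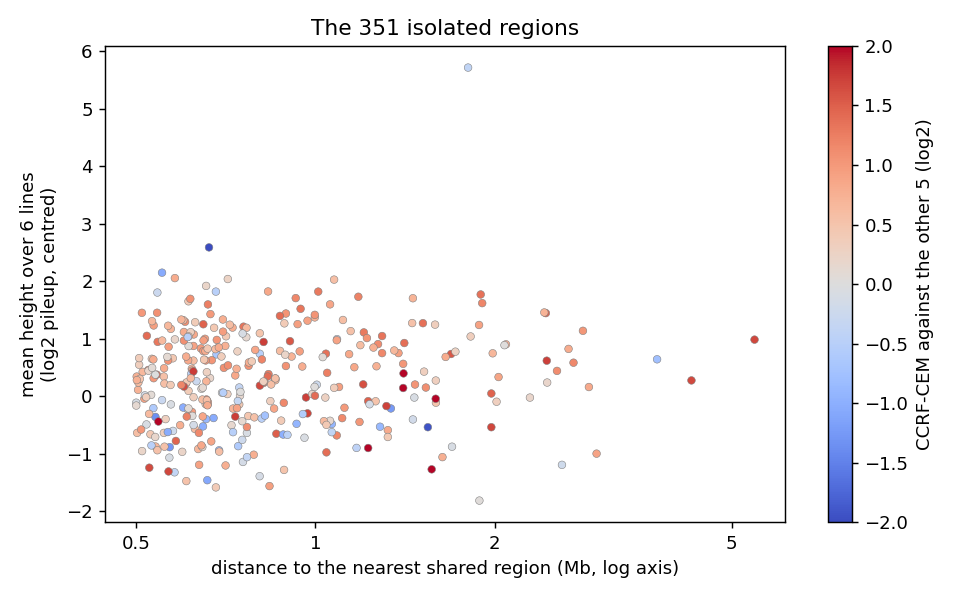
Each of the 351 isolated regions by its distance from the nearest shared region (Mb, log axis) and its mean height over the 6 lines (log2 pileup, centred); colour gives CCRF-CEM against the other 5 lines in log2, with values beyond 2 in either direction drawn in the end colours. Most points are red, CCRF-CEM being above the others at 287 members, and 1 region on chromosome 7 stands apart at 5.72.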

How the data were processed

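ATAC-seq peaks of 6 cell lines, 1 library each, were read from the narrowPeak lists that the authors deposited, which have no header. Per the submitters' processing notes, Bowtie2, Picard, SAMtools and MACS2 2.1.1.2016030 were used with build hg19. Their settings, and whether tags were shifted for the Tn5 cut, are not stated in those notes. For each summit the authors deposited a score (10 times the −log10 p, rounded down), a fold enrichment over local background, and −log10 values of p and q. Peaks were called per library, as the lists show, and no value below a −log10 p of 5.00 appears in the deposited lists.

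The pileup t was sought as a whole number, with background c set by taking the fold as (t + 1) / (c + 1) and p as the upper Poisson tail above t. This matched the deposited −log10 p within 0.001 for 100% of summits, with no second whole number matching. It assumes that the caller formed its values in this way. Intervals overlapping by at least 1 bp were merged, the strongest summit of a line represented it in a region, and distances ran between midpoints. Each library gave 1 isolated-minus-dense difference per measure, tested by an exact sign-flip permutation over libraries and adjusted over 7 measures. Intervals of shares are exact (Clopper-Pearson) and cover counting error only.

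The members, lists and measures were chosen with earlier results of these data known. Named regions follow a rule by height, SD, width, distance and line; the longest run and the member with no region nearby were added after their values were seen. Alternatives varied the distance, threshold, merging, chromosomes, summit and lines. The search was tested on simulated data. Per-sample columns not used numbered 0. Motifs and genes were not analysed here. Scripts ran on numpy 2.4.6, scipy 1.17.1, pandas 2.3.3 and matplotlib 3.10.9 under Python 3.11.15.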

Additional observations from a re-analysis of the deposited data

Results flagged for a closer look

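Gaps between the 6 lines were examined with Dixon's ratio in 56 sets of 6 values, the 7 differences between isolated and dense regions and 49 named members, and 6 sets had a line set apart. Chance gives about 1 in 20 for sets not chosen by their values, but many named members were picked because a line was far out or the lines differed most, so the count among them is no test. MOLT-4 stood apart in the share of regions with several summits, at −2.39 percentage points (isolated minus dense) where the other lines were positive. Pileups of the members were compared here as log2 tags that were not centred. A line's overall level therefore enters, and CCRF-CEM had the lowest median over shared regions, 31 tags. On this scale CCRF-CEM was set apart at 4 members. It was low on chromosome 10 at 42384956 to 42385687, with 45 tags against 227 to 431, and on chromosome 19 at 28284138 to 28285364, with 25 against 35 to 41. It was high on chromosome 1 at 106372861 to 106373629, with 79 tags against 9 to 20, and on chromosome 2 at 80219985 to 80220846, with 98 against 30 to 46. TALL-1 was low on chromosome 4 at 15003156 to 15005963, with 22 tags against 84 to 114. The chromosome 19 member was among the steadiest once centred, with an SD of 0.13 and CCRF-CEM at −0.29 against the other 5 lines. Over all members a line was set apart at 26 of 351 (7.41%), about the share at dense regions, 7.25%. By line the counts differed: CCRF-CEM was low at 3 members (0.855%) and at 197 dense regions (3.72%). TALL-1 was high at 4 members (1.14%) and at 64 dense regions (1.21%). With pileups not centred, a line's overall level enters such counts, and TALL-1 had the highest median over shared regions, 44 tags. They are thus no measure of single lines.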

How the results depend on the processing

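The number of members followed the distance chosen, with 876 at 250 kb and 99 at 1 Mb, and was 325 to 360 with each line left out in turn. The pileup, fold, −log10 p rank and width differences kept their direction in every alternative run. The adjusted p of pileup was larger at 250 kb (0.175), with −log10 p of at least 10 (0.175), with equal numbers of peaks (0.146) and at 1 Mb (0.0875), and ran from 0.0875 to 0.35 with a line left out, and that of fold, rank and width was 0.0729 with equal numbers (exact permutation). The adjusted p was 0.0437 (exact permutation) for pileup, fold, rank, width and summit distance with dense meaning 10 or more neighbours (log2 pileup 0.52, log2 fold 0.26, rank 16.5 points, width 115 bp, summit distance −6.00 bp) and without chromosome X (0.46, 0.21, 13.6 points, 98.0 bp and −4.58 bp). With the summit nearest the middle pileup (0.43) and fold (0.21) had this adjusted p too. Unadjusted, pileup, fold, rank and width already had the smallest p of 0.03125 in the main run (exact permutation). With 10 or more neighbours and without chromosome X, their adjusted p fell because summit distance reached that smallest p as well. The share with several summits turned to −0.30 points at 250 kb. With a line left out the ranges were 0.33 to 0.49 for pileup, 0.18 to 0.24 for fold, 0.13 to 0.28 for background, 10.8 to 14.2 points for rank, 72.1 to 95.8 bp for width, −7.45 to −2.90 bp for summit distance and −0.50 to 1.28 points for several summits, which was negative without CCRF-CEM and without TALL-1; with 5 libraries p cannot go below 0.0625 (exact permutation). Within chromosomes, an alternative added after seeing the data, pileup stood at 0.34 and width at 69.9 bp, both at an adjusted p of 0.0547 (exact permutation). The centrings on dense regions and on the mean were also added then. No paired analysis was possible because each line had 1 library, so that no replicate number pairs samples between lines; the isolated and dense values compared within a library are paired by it. Unknown read totals limit what a missing peak can show.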
